A study of Bos taurus with 32 samples.

Results

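The liver of 4 bull calves and 4 heifer calves produced in vitro was compared here, gene by gene, over the autosomes. In vitro production (IVP) means that an embryo made in culture was frozen, thawed and transferred into a recipient. The 8 liver libraries were taken by the labels for tissue, origin and sex from 32 libraries in all, which also include liver of 8 calves from timed artificial insemination (AI) and muscle of the same 16 calves. All calves were raised under similar conditions and biopsied by percutaneous punch at 117 to 143 days of age in IVP bulls, 118 to 143 in IVP heifers, 114 to 136 in AI bulls and 121 to 142 in AI heifers. No treatment beyond origin, and neither breed, sire nor dam, is given in the labels, so each group is a set of calves of 1 sex and 1 origin. Of 35092 genes listed, 29634 were placed on autosomes, and 15799 of these had enough counts to be tested.

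The liver makes glucose, fatty acids, cholesterol, bile acids and most plasma lipoproteins. In ruminants little dietary glucose is absorbed, so that gluconeogenesis from propionate and the use of acetate weigh heavily. In several mammals the pattern of growth hormone release differs between males and females and sets a sex-dependent programme in liver, which includes cytochrome P450 enzymes, IGF1 and the transcription factor CUX2. Cholesterol synthesis runs from acetyl-CoA through mevalonate and squalene, and its genes are commonly switched on together by the sterol-sensing factor SREBF2.

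Total counts were 25.6 to 39.3 (in units of 1e6) in IVP bulls and 26.8 to 40.2 in IVP heifers. XIST, the X-linked RNA that marks cells with an inactive X, was at 634 to 826 CPM in IVP heifers and at 0 to 0.0778 CPM in IVP bulls. Of 9 genes that the annotation places on Y, 6 were at 0 in all 16 libraries, and the other 3 (CSF2RA, IL3RA and AKAP17A, from the region that X and Y share) had counts in every library of both sexes, so they are no check of sex. CPM are counts per 1e6 counts, with library sizes scaled by TMM. The 25 hepatocyte markers tested summed to 146820 to 163480 CPM in bulls and 139460 to 169180 CPM in heifers. The first principal component of the 8 libraries (39.6% of the variance) separated the sexes.

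IVP bull 2 lay close to the mean of its group mates. Its squared distance from that mean was 0.897 times counting noise, and that of AI heifer 4 was 0.330 times, against 6.28 to 20.7 times in the other 14 liver libraries. Over the 8 ways of computing this ratio that were tried, it ran from 0.0688 to 1.26 in IVP bull 2, from 0.0367 to 0.402 in AI heifer 4 and from 4.74 to 127 in the others. Calls are therefore also given without IVP bull 2, and means ± SD leave it out (n = 3 bulls). AI heifer 4 stays in that fit, in which all groups share 1 estimate of the spread. In genes where IVP bull 2 had 0 counts, 90.5% of the values from 2 to below 30 in the other male libraries were even, against 49.0% in genes where it had counts. The shares were 92.7% and 48.9% for AI heifer 4 among the female libraries, and 67.9% to 80.4% and 53.7% to 59.2% for the other 14 libraries. What was done to the counts before deposit, if anything, was not tested.

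Of the 15799 autosomal genes, 1712 (10.8%) differed between IVP bulls and IVP heifers at an adjusted p under 0.05 in edgeR's quasi-likelihood test. Bulls were higher in 895 (5.66%) and heifers in 817 (5.17%), and the median log2 difference over all of them was -0.01. Without IVP bull 2, 784 of 16035 genes passed (4.89%), 432 with bulls higher (2.69%) and 352 with heifers higher (2.2%), and 772 of these were among the 1712. Without AI heifer 4 as well, 422 passed.

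The 24 metabolic lists held 723 autosomal genes that could be tested, of 789 listed in the file. Of these, 131 were called (18.1%, against 10.8% of all autosomal genes), with bulls higher in 52 and heifers higher in 79. The median log2 difference of the 723 was -0.03. The lists were chosen with earlier results of these data known, so the 2 shares are no test of enrichment. Without IVP bull 2, 50 of the 131 were still called, and 31 without AI heifer 4 as well. Without both, the gluconeogenesis, citric acid cycle, lipogenesis, urea cycle and steroid hormone lists had 0 calls. The 4 bulls lay all above the 4 heifers in 78 members and all below in 103, where 9.37% and 9.47% of all autosomal genes did so.

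**Figure D1:**
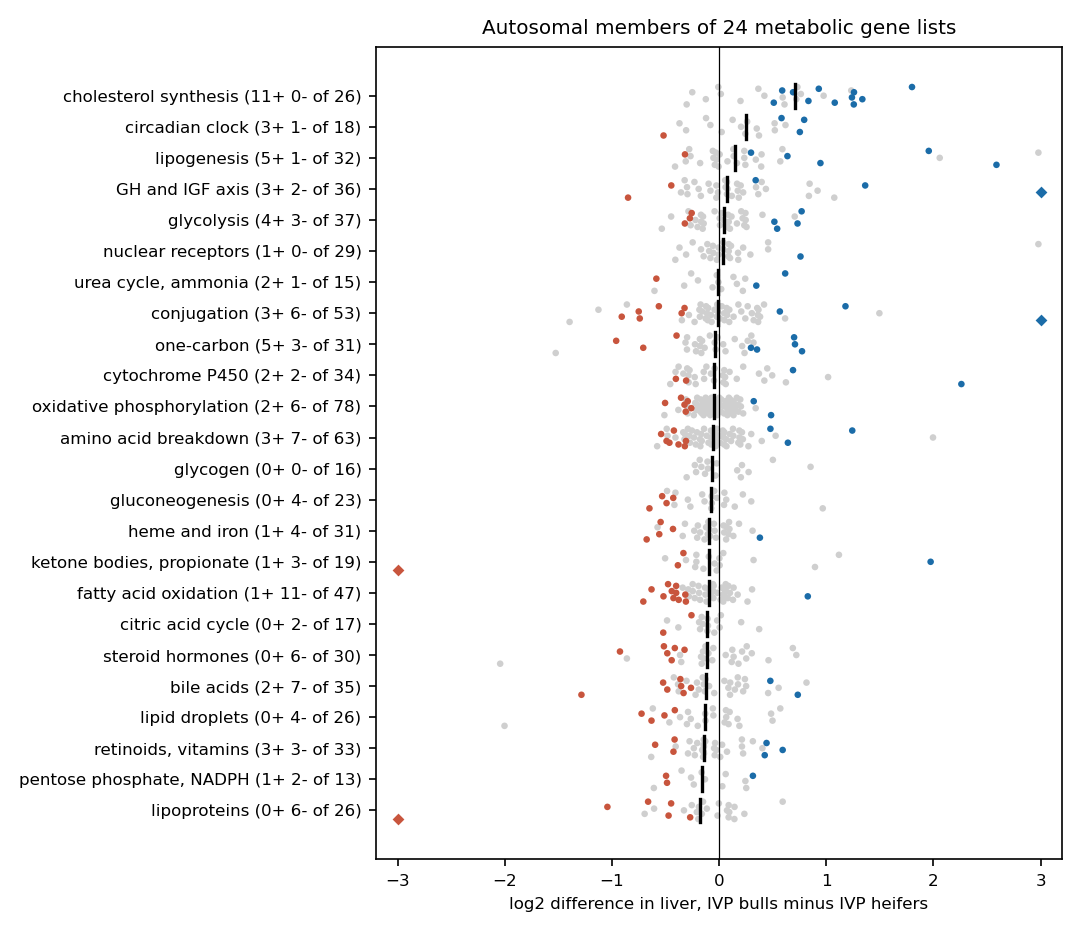
Autosomal members of 24 metabolic gene lists, 1 point per gene, by the log2 difference between IVP bulls and IVP heifers (x axis, positive where bulls were higher). Blue points were called higher in bulls, red points called higher in heifers, grey points were not called, black bars are list medians, and diamonds at the edges are genes beyond 3 on this scale. The cholesterol synthesis list has 11 blue points and a median of 0.71.

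Genes of cholesterol synthesis were higher in bulls wherever they were called. Of 26 members tested, 11 were called, each with bulls higher, and the list's median log2 difference was 0.71. That count was 3 with no filter on low counts, 4 with age at biopsy as a covariate and 17 with DESeq2's Wald test. It was 1 without IVP bull 1 or without heifer 2, 2 without bull 2 or heifer 3, 3 without bull 4 or heifer 1, 5 without heifer 4 and 13 without bull 3. FDFT1, squalene synthase, the first enzyme committed to sterols, was at 609, 496, 367 and 551 CPM in bulls 1 to 4 and 181, 140.3, 260.2 and 274 CPM in heifers 1 to 4. The lowest bull was above the highest heifer. The means were 509 ± 127 CPM in bulls (SD, n = 3) and 214 ± 63.9 CPM in heifers (SD, n = 4), and the log2 difference was 1.24 ± 0.235 (SE; adjusted p = 0.00487), or 1.25 (adjusted p = 0.0167) without IVP bull 2. TM7SF2, a sterol reductase, was at 393, 313, 242 and 311 CPM in bulls 1 to 4 and 174, 188, 221 and 252 CPM in heifers 1 to 4. Bull 3 fell inside the heifers' range there, and the log2 difference was 0.59 ± 0.143 (SE; adjusted p = 0.0144), or 0.59 (adjusted p = 0.0424) without IVP bull 2.

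HMGCS1, which makes the precursor of mevalonate, was at 677, 393, 216 and 504 CPM in bulls 1 to 4 and 145, 71.9, 144 and 153 CPM in heifers 1 to 4. The groups did not overlap, but bull 3 was well under the other bulls, and the log2 difference was 1.80 ± 0.483 (SE; adjusted p = 0.0329). Without IVP bull 2 its adjusted p was 0.0707. SQLE, squalene epoxidase (1.08), FDPS, farnesyl diphosphate synthase (1.34), DHCR7, a late reductase of the pathway (1.26), and INSIG1, a sterol-regulated brake on SREBF2 (1.26), were also called on the log2 scale. CYP51A1, lanosterol demethylase, had a log2 difference of 0.93 ± 0.249 (SE; adjusted p = 0.0289, 0.0685 without bull 2). SREBF2 itself had a log2 difference of 0.20 ± 0.142 (SE; adjusted p = 0.389) and did not pass. FDFT1 and TM7SF2 were the 2 of the 11 still called without IVP bull 2. Without AI heifer 4 as well, FDFT1 was the 1 left (adjusted p = 0.0307), and TM7SF2 had an adjusted p of 0.0663.

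Bull 3 was the lowest of the 4 bulls in 22 of the 26 members and in all 11 called ones. IVP bull 2 lay near the mean of its mates, so it could seldom be lowest, and the same count over all autosomal genes was not made. The 4 bulls lay all above the 4 heifers in 11 of the 26 members and all below in 1, where 9.37% and 9.47% of all autosomal genes did so. Among the 11 called ones, which were picked by the same values, the groups did not overlap in 9. Summed over the list, bulls ran from 3708 to 7024 CPM and heifers from 2744 to 3907 CPM, so the sums overlapped.

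**Figure D2:**
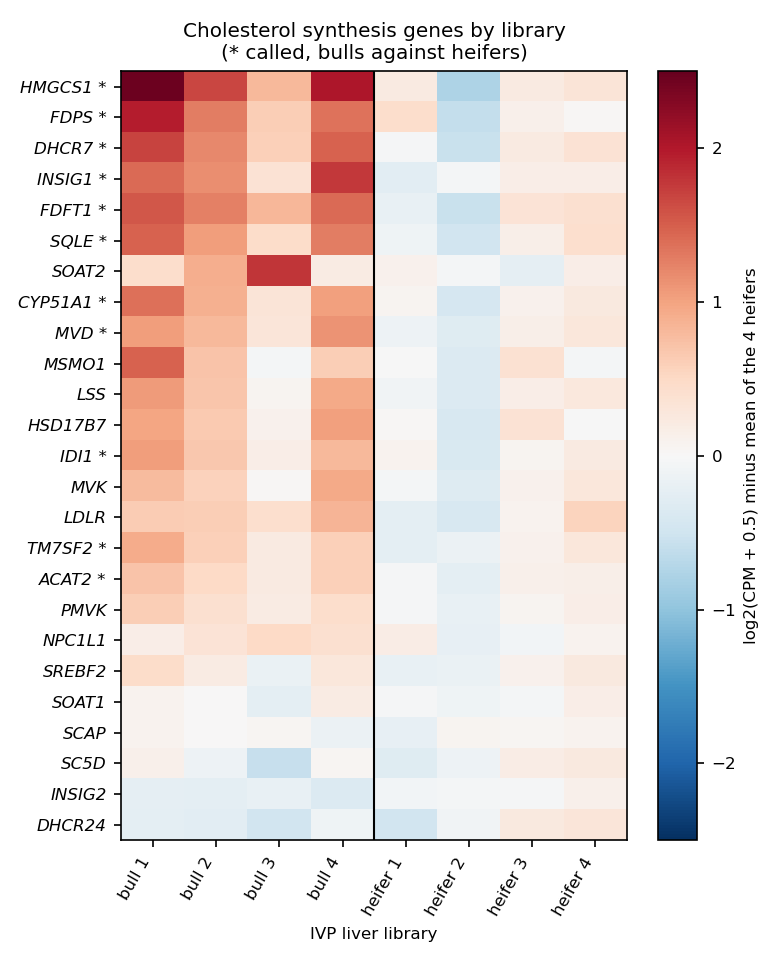
Cholesterol synthesis genes (rows) in the 8 IVP liver libraries (columns), coloured by log2(CPM + 0.5) minus the mean of the 4 heifers, with 1 of the 26 list members not drawn. Red is above and blue below that mean, and an asterisk marks a called gene. Bulls 1 and 4 are the reddest columns and bull 3 the palest of the bulls.

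Fatty acid synthesis genes were fewer among the calls. Of 32 members tested, 5 were called with bulls higher and 1 with heifers higher, and the median was 0.15. FASN, fatty acid synthase, was at 138, 100.02, 54.4 and 171 CPM in bulls 1 to 4 and 21.8, 19.3, 39.96 and 38.2 CPM in heifers 1 to 4. The lowest bull, bull 3, was above the highest heifer. The means were 121 ± 60.1 CPM in bulls (SD, n = 3) and 29.8 ± 10.8 CPM in heifers (SD, n = 4), and the log2 difference was 1.96 ± 0.528 (SE; adjusted p = 0.0343), with an adjusted p of 0.0728 without IVP bull 2. ACLY, which makes cytosolic acetyl-CoA from citrate, was at 51.5, 44.4, 36 and 54.7 CPM in bulls 1 to 4 and 24.4, 19.8, 27 and 25.5 CPM in heifers 1 to 4. The groups did not overlap, and the log2 difference was 0.95 ± 0.251 (SE; adjusted p = 0.0284, 0.0664 without bull 2). ACACA, acetyl-CoA carboxylase, had a log2 difference of 0.64 ± 0.165 (SE; adjusted p = 0.0220, 0.0581 without bull 2). ELOVL7, an elongase of long fatty acids, was low in all calves, at 4.96, 6.30, 10.1 and 4.04 CPM in bulls 1 to 4 and 0.164, 0.792, 1.06 and 2.23 CPM in heifers 1 to 4. It was the single call of the list that remained without IVP bull 2, at 2.59 (adjusted p = 0.0378). SCD, stearoyl-CoA desaturase, had 2.06 ± 0.677 (SE; adjusted p = 0.0712) and did not pass, and MOGAT1, a monoacylglycerol acyltransferase, was the member higher in heifers (-0.32 ± 0.0980, SE, adjusted p = 0.0452, 0.0997 without bull 2).

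ACSS2 turns acetate, a main ruminant fuel, into cytosolic acetyl-CoA. It was at 174, 111, 54.9 and 167 CPM in bulls 1 to 4 and 30.9, 19.4, 43 and 35.5 CPM in heifers 1 to 4. Every bull was above every heifer, with bull 3 lowest, and the log2 difference was 1.97 ± 0.489 (SE; adjusted p = 0.0239), with an adjusted p of 0.0533 without IVP bull 2.

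Genes of fatty acid oxidation were called mostly with heifers higher. Of 47 members tested, 11 were called with heifers higher and 1 with bulls higher, and the median was -0.10. CPT1A, the carnitine palmitoyltransferase that admits long fatty acids to mitochondria, was at 169, 170.4, 204 and 142 CPM in bulls 1 to 4 and 239, 279, 259 and 284 CPM in heifers 1 to 4. All heifers were above all bulls, with means of 172 ± 31 CPM in bulls (SD, n = 3) and 265 ± 20.5 CPM in heifers (SD, n = 4). The log2 difference was -0.63 ± 0.143 (SE; adjusted p = 0.0100), or -0.63 (adjusted p = 0.0355) without IVP bull 2. MLYCD, which removes malonyl-CoA, the inhibitor of CPT1A, was at 49.1, 46.7, 47.1 and 43 CPM in bulls 1 to 4 and 61.5, 73, 61 and 63 CPM in heifers 1 to 4 and had a log2 difference of -0.48 ± 0.0830 (SE; adjusted p = 0.00208, 0.0105 without bull 2). ACOT12, a cytosolic acetyl-CoA hydrolase, had -0.52 ± 0.106 (SE; adjusted p = 0.00561, 0.0217 without bull 2). ABCD3 (-0.31), a peroxisomal importer, and ETFDH (-0.40), which passes electrons from oxidation to the respiratory chain, made up the 5 heifer-higher calls that held without IVP bull 2. In 9 of the 11 heifer-higher calls bull 3 was the highest of the bulls, so the nearest to the heifers. That was not counted over all autosomal genes. The count of 11 was 5 without bull 1, bull 2 or heifer 4, 6 without heifer 2, and 7 without bull 4. Without IVP bull 2 and AI heifer 4 it was 2, namely MLYCD and ACOT12 (adjusted p = 0.0207 and 0.0381). The member higher in bulls was FABP1, the liver fatty acid binding protein, which carries fatty acids and is no oxidation enzyme. It was at 1889, 1532, 1387 and 1443 CPM in bulls 1 to 4 and 1017, 715, 1001 and 788 CPM in heifers 1 to 4, without overlap, and had a log2 difference of 0.83 ± 0.183 (SE; adjusted p = 0.00916, 0.0278 without bull 2).

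**Figure D3:**
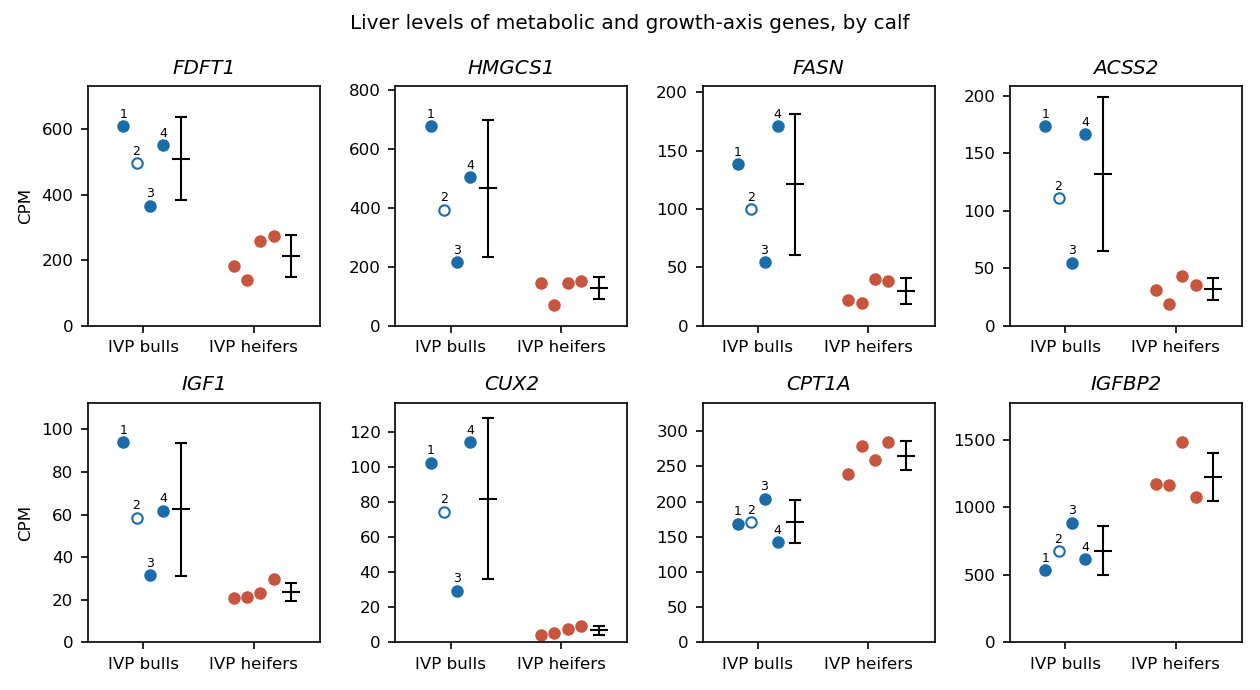
Liver CPM of 8 metabolic and growth-axis genes in IVP bulls (blue, numbered, bull 2 open) and IVP heifers (red), each point a calf, with mean and SD beside each group (bulls over libraries 1, 3 and 4, heifers over 4). Bulls lie above heifers in the first 6 panels and below them in CPT1A and IGFBP2, and bull 3 is the lowest bull in the first 6 panels.

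Genes of plasma lipoproteins were called with heifers higher in 6 of 26 tested and with bulls higher in 0, and the median was -0.17. Without IVP bull 2, 3 of the 6 were called. ANGPTL4, which inhibits lipoprotein lipase, was at 13.4, 20.2, 27.9 and 19.98 CPM in bulls 1 to 4 and 37.3, 51.7, 44.9 and 34.6 CPM in heifers 1 to 4. Every heifer was above every bull, and the log2 difference was -1.04 ± 0.208 (SE; adjusted p = 0.00624), or -1.04 (adjusted p = 0.0260) without IVP bull 2. LCAT, which esterifies plasma cholesterol, had -0.47 ± 0.105 (SE; adjusted p = 0.00926, 0.0301 without bull 2). APOE (-0.45) and APOA5 (-0.66), both apolipoproteins, were called but not without IVP bull 2. The sixth and largest difference, in LIPG, belongs to a group of genes described below.

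Lipid droplet genes were called with heifers higher in 4 of 26. CD36, a fatty acid receptor, was at 24.1, 32.9, 38.4 and 36.4 CPM in bulls 1 to 4 and 55.3, 47.3, 67.6 and 47.6 CPM in heifers 1 to 4, without overlap, and had a log2 difference of -0.72 ± 0.132 (SE; adjusted p = 0.00275, 0.0113 without bull 2). It was the 1 call of the 4 left without IVP bull 2. Bile acid genes were called with heifers higher in 7 of 35 and with bulls higher in 2, and 1 in each direction passed without IVP bull 2. AMACR, a racemase of bile acid side chains, was at 55.5, 51, 44.2 and 53.3 CPM in bulls 1 to 4 and 71.2, 70.2, 68.2 and 82.9 CPM in heifers 1 to 4 and had -0.52 ± 0.100 (SE; adjusted p = 0.00378, 0.0152 without bull 2) on the log2 scale. CYP7A1, the rate-limiting enzyme of bile acid synthesis, had -0.13 ± 0.224 (SE; adjusted p = 0.750) and did not pass. SLC51A and SLC51B, the 2 chains of a bile acid exporter, differed in opposite directions, with -1.28 ± 0.348 (SE; adjusted p = 0.0259, 0.0770 without bull 2) and 0.48 ± 0.120 (SE; adjusted p = 0.0170, 0.0466 without bull 2).

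In glucose metabolism, gluconeogenesis genes were called with heifers higher in 4 of 23 and with bulls higher in 0, and KLF15 was the 1 left without IVP bull 2. KLF15, a fasting-responsive factor, was at 93.6, 87.8, 83.8 and 84.8 CPM in bulls 1 to 4 and 106, 129, 110.01 and 125 CPM in heifers 1 to 4 and had a log2 difference of -0.43 ± 0.103 (SE; adjusted p = 0.0136, 0.0436 without bull 2). TAT, tyrosine aminotransferase, had -0.49 ± 0.124 (SE; adjusted p = 0.0183, 0.0538 without bull 2). Glycolysis genes were called in both directions, 4 with bulls higher and 3 with heifers higher of 37, and 2 and 0 without IVP bull 2. PKLR, the liver pyruvate kinase, was at 136, 126, 118 and 125 CPM in bulls 1 to 4 and 77.6, 61.8, 78.4 and 85.8 CPM in heifers 1 to 4. All 4 bulls were above all 4 heifers, the log2 difference was 0.73 ± 0.109 (SE; adjusted p = 0.000748), and without IVP bull 2 it was 0.73 (adjusted p = 0.00361). PFKFB4, which sets a regulator of phosphofructokinase, had 0.54 ± 0.125 (SE; adjusted p = 0.0109, 0.0381 without bull 2). Of 16 glycogen genes, 0 were called, and the smallest p was that of PPP1R3C, a glycogen-targeting subunit (0.85 ± 0.290, SE, adjusted p = 0.0747).

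Of 13 pentose phosphate and NADPH genes, PGD (0.32 ± 0.0946, SE, adjusted p = 0.0398, 0.103 without bull 2) was called with bulls higher and IDH1 (-0.49 ± 0.108, SE, adjusted p = 0.00895, 0.0291 without bull 2) and RPIA (-0.49 ± 0.136, SE, adjusted p = 0.0273, 0.0801 without bull 2) with heifers higher. Of 17 citric acid cycle genes, 2 were called (11.8%, near the 10.8% of all autosomal genes), both with heifers higher. These were OGDH (-0.52 ± 0.119, SE, adjusted p = 0.0103, 0.0368 without bull 2) and SUCLG1 (-0.26 ± 0.0790, SE, adjusted p = 0.0442, 0.105 without bull 2). MMUT, the mutase that takes propionate into that cycle, was at 298, 286, 279 and 273 CPM in bulls 1 to 4 and 358, 396, 358 and 370.4 CPM in heifers 1 to 4. The heifers were all higher, at -0.38 ± 0.0779 (SE; adjusted p = 0.00541, 0.0236 without bull 2) on the log2 scale. BDH1, which makes the ketone body hydroxybutyrate, was listed at 0 in all 4 bulls and in heifer 1 and was at most 1.38 CPM in the others, so no fold is given. Of 78 nuclear genes of oxidative phosphorylation, 2 were called with bulls higher and 6 with heifers higher, and 1 in each direction without IVP bull 2. The share called was 10.3%, no higher than the 10.8% of all autosomal genes. NDUFB2, a subunit of complex I, had -0.50 ± 0.0854 (SE; adjusted p = 0.00176, 0.00947 without bull 2), and ATP5ME, a subunit of ATP synthase, 0.49 ± 0.102 (SE; adjusted p = 0.00669, 0.0261 without bull 2).

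Among urea cycle and ammonia genes, 3 of 15 were called. ASS1, argininosuccinate synthase, was at 391, 392, 394 and 385 CPM in bulls 1 to 4 and 481, 604, 566 and 693 CPM in heifers 1 to 4. Heifers were all higher and the bulls lay within a narrow range, and the log2 difference was -0.58 ± 0.131 (SE; adjusted p = 0.00926, 0.0305 without bull 2). RHBG, an ammonia channel, was higher in bulls (0.62 ± 0.150, SE, adjusted p = 0.0150, 0.0436 without bull 2), as was SIRT5, a mitochondrial desuccinylase (0.35 ± 0.0922, SE, adjusted p = 0.0228, 0.0628 without bull 2). Of 63 amino acid breakdown genes, 3 were called with bulls higher and 7 with heifers higher, and 3 and 1 without IVP bull 2. CSAD, which makes taurine's precursor, was at 198, 150.3, 116 and 148 CPM in bulls 1 to 4 and 52, 53.4, 78.4 and 75.1 CPM in heifers 1 to 4. Bulls were all above heifers (1.24 ± 0.203, SE, adjusted p = 0.00204), and the adjusted p without IVP bull 2 was 0.00797. MCCC2, of leucine breakdown, was higher in heifers (-0.46 ± 0.0702, SE, adjusted p = 0.000831, 0.00522 without bull 2).

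In one-carbon metabolism, 5 of 31 were called with bulls higher and 3 with heifers higher, and 4 and 2 without IVP bull 2. CTH, cystathionine lyase, was at 16.1, 13.2, 10.5 and 13.3 CPM in bulls 1 to 4 and 24.3, 21.9, 19 and 21.3 CPM in heifers 1 to 4. All heifers were above all bulls, with a log2 difference of -0.71 ± 0.136 (SE; adjusted p = 0.00381, 0.0166 without bull 2). TYMS, thymidylate synthase (0.71), and ALDH1L2, a mitochondrial folate enzyme (0.77), were higher in bulls.

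Of 34 cytochrome P450 genes and their partners, 2 were called in each direction, and the 2 with bulls higher remained without IVP bull 2. The share called was 11.8%, near the 10.8% of all autosomal genes. CYP2C281, a member of the CYP2C family of drug and steroid oxidases, was at 33.4, 21, 11.6 and 26.4 CPM in bulls 1 to 4 and 3.39, 4.11, 6.88 and 4.96 CPM in heifers 1 to 4. Bull 3 was again the lowest bull and above all heifers, and the log2 difference was 2.26 ± 0.422 (SE; adjusted p = 0.00549), or 2.30 (adjusted p = 0.0167) without IVP bull 2. CYP2U1, a fatty acid hydroxylase, had 0.69 ± 0.153 (SE; adjusted p = 0.00939, 0.0276 without bull 2) and CYP4A59 -0.40 ± 0.102 (SE; adjusted p = 0.0184, 0.0503 without bull 2). CYP genes with close copies may share reads, so their split between copies is uncertain. Of 53 conjugating enzymes, 3 were called with bulls higher and 6 with heifers higher, and 2 and 3 without IVP bull 2. UGT3A2, a glycosyltransferase, was higher in heifers (-0.56 ± 0.105, SE, adjusted p = 0.00303, 0.0143 without bull 2), and NQO1, a quinone reductase, likewise (-0.91 ± 0.203, SE, adjusted p = 0.00918, 0.0331 without bull 2).

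Steroid hormone genes were called with heifers higher in 6 of 30, and 0 of 30 passed without IVP bull 2. SHBG, which binds sex steroids in plasma, was at 74.2, 78.8, 89.4 and 73.8 CPM in bulls 1 to 4 and 95.3, 119, 111 and 127 CPM in heifers 1 to 4 and had -0.51 ± 0.143 (SE; adjusted p = 0.0294), with an adjusted p of 0.0740 without IVP bull 2. AKR1D1, a steroid reductase, had -0.48 ± 0.133 (SE; adjusted p = 0.0276, 0.0715 without bull 2) and NR3C2, the mineralocorticoid receptor, -0.92 ± 0.250 (SE; adjusted p = 0.0254, 0.0748 without bull 2). The receptors ESR1 (-0.15 ± 0.117, SE, adjusted p = 0.442) and NR3C1 (-0.05 ± 0.0803, SE, adjusted p = 0.717) did not pass.

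In the growth hormone and IGF axis, 3 of 36 were called with bulls higher and 2 with heifers higher, and CUX2 and IGFBP2 were those left without IVP bull 2. The share called was 13.9%, near the 10.8% of all autosomal genes. CUX2 is a repressor known for its sex-dependent level in mouse and rat liver, and the direction there was not compared here. CUX2 was at 103, 74.6, 29.5 and 114 CPM in bulls 1 to 4 and 4.18, 5.65, 7.94 and 9.46 CPM in heifers 1 to 4. The lowest bull, bull 3, was above the highest heifer. Means were 82.1 ± 45.9 CPM in bulls (SD, n = 3) and 6.81 ± 2.35 CPM in heifers (SD, n = 4), the log2 difference was 3.56 ± 0.439 (SE; adjusted p = 0.000649), and without IVP bull 2 it was 3.59 (adjusted p = 0.00258). IGF1, the growth factor that liver secretes under growth hormone, was at 93.8, 58.5, 31.7 and 61.8 CPM in bulls 1 to 4 and 20.8, 21.2, 23.4 and 29.9 CPM in heifers 1 to 4. Bull 3 was just above the highest heifer, and the log2 difference was 1.36 ± 0.348 (SE; adjusted p = 0.0261), with an adjusted p of 0.0615 without IVP bull 2. IGFBP2, a binding protein that holds IGFs, was at 535, 677, 886 and 617 CPM in bulls 1 to 4 and 1169.9, 1165, 1479 and 1078 CPM in heifers 1 to 4. All heifers were above all bulls, with -0.85 ± 0.151 (SE; adjusted p = 0.00236), or -0.85 (adjusted p = 0.0105) without IVP bull 2. STAT5B, which carries the growth hormone signal, was slightly higher in bulls (0.34 ± 0.101, SE, adjusted p = 0.0376, 0.0933 without bull 2), and FOXA2, a hepatocyte factor, higher in heifers (-0.45 ± 0.120, SE, adjusted p = 0.0249, 0.0628 without bull 2).

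The other receptors and hormones of that axis did not pass. GHR, the growth hormone receptor, was at 22.3, 14.9, 12.2 and 12.7 CPM in bulls 1 to 4 and 19.5, 11.8, 13.7 and 17.8 CPM in heifers 1 to 4 and overlapped throughout (-0.02 ± 0.246, SE, adjusted p = 0.961). PRLR, the prolactin receptor, had 0.44 ± 0.143 (SE; adjusted p = 0.0563), IGFALS, the stabilising subunit of circulating IGF complexes, 1.08 ± 0.399 (SE; adjusted p = 0.102) and IGF2 -0.23 ± 0.133 (SE; adjusted p = 0.286). IGFBP3 had 0.17 ± 0.0973 (SE; adjusted p = 0.283), IGFBP1 -0.29 ± 0.465 (SE; adjusted p = 0.734), INSR -0.08 ± 0.0874 (SE; adjusted p = 0.601), LEPR 0.20 ± 0.171 (SE; adjusted p = 0.484) and SERPINA6, the cortisol-binding globulin, 0.69 ± 0.260 (SE; adjusted p = 0.103).

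In the remaining lists, 6 of 33 retinoid and vitamin genes were called, 3 in each direction, and 1 with bulls and 2 with heifers higher without IVP bull 2. BCO2, which cleaves carotenoids, was at 18.9, 18.4, 18.8 and 17.5 CPM in bulls 1 to 4 and 13.8, 10.6, 12.2 and 12.1 CPM in heifers 1 to 4, with bulls all above heifers (0.59 ± 0.121, SE, adjusted p = 0.00543, 0.0185 without bull 2). LMBRD1, a lysosomal cobalamin exporter, was higher in heifers (-0.43 ± 0.0768, SE, adjusted p = 0.00258, 0.0131 without bull 2). Of 31 heme and iron genes, 1 was called with bulls higher and 4 with heifers higher, and 1 in each direction without IVP bull 2. FECH, which inserts iron into protoporphyrin, was at 23.7, 25.9, 25.5 and 28.6 CPM in bulls 1 to 4 and 40.3, 38.5, 35.7 and 36.6 CPM in heifers 1 to 4 (-0.55 ± 0.0933, SE, adjusted p = 0.00190, 0.00897 without bull 2), and PPOX, the enzyme just before it, differed the other way (0.38 ± 0.0697, SE, adjusted p = 0.00275, 0.0152 without bull 2). Of 18 clock genes, 3 were called with bulls higher and 1 with heifers higher, and 1 and 0 without IVP bull 2. CRY2 (0.58) and BHLHE41 (0.79), with bulls higher, and TEF (-0.52), with heifers higher, were called only with IVP bull 2 included. The hour of biopsy is not given in the labels.

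Outside the lists, the smallest p with bulls higher was that of RAD51B, a recombination protein, at 31.6, 33.4, 35.9 and 31.5 CPM in bulls 1 to 4 and 16.1, 14.7, 16 and 15.3 CPM in heifers 1 to 4. The 2 groups were apart by more than the spread within either, with a log2 difference of 1.09 ± 0.0835 (SE; adjusted p = 6.23e-07, 6.82e-06 without bull 2). INHBA, the activin A subunit, was at 26.5, 28, 30.3 and 27.8 CPM in bulls 1 to 4 and 8.46, 8.36, 9.65 and 7.00 CPM in heifers 1 to 4 (1.76 ± 0.172, SE, adjusted p = 1.31e-05, 9.48e-05 without bull 2). TDRD9, a germline helicase, was at 11, 9.74, 7.76 and 10.6 CPM in bulls 1 to 4 and 1.73, 0.324, 0.342 and 0.450 CPM in heifers 1 to 4 (3.68 ± 0.371, SE, adjusted p = 2.82e-05, 0.000162 without bull 2), with heifer 1 above the other heifers, and it was also higher in muscle of the same IVP bulls (4.84, adjusted p = 4.62e-05). DEPDC5 (0.78), CCDC180 (1.18), ISYNA1 (1.19), RAB24 (0.52), DIPK1C (2.55) and PKD2L1 (2.40) were the other bull-higher genes picked by p or by fold, and of these PKD2L1 was not called without IVP bull 2 (adjusted p = 0.0871). With heifers higher, RNFT1, a ubiquitin ligase, was at 25.9, 26.8, 26 and 28.3 CPM in bulls 1 to 4 and 43.4, 47.9, 47.5 and 51.3 CPM in heifers 1 to 4 (-0.83 ± 0.0880, SE, adjusted p = 2.71e-05, 0.000218 without bull 2) and COL14A1, a fibril-associated collagen, at 62.8, 62.5, 59.9 and 63.5 CPM in bulls 1 to 4 and 86.3, 102, 87.2 and 101 CPM in heifers 1 to 4 (-0.60 ± 0.0759, SE, adjusted p = 0.000212, 0.00142 without bull 2).

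The largest folds with heifers higher came from genes that were at 0 in AI heifers 1, 2 and 3. Of 124 such autosomal genes, 77 were called higher in IVP heifers and 0 in IVP bulls, and 76 of the 77 had exactly 1 count in AI heifer 4. They made up 77 of the 166 heifer-higher genes over 2-fold. ART1, a mono-ADP-ribosyltransferase, was at 0.280, 0.307, 0.273 and 0.544 CPM in bulls 1 to 4 and 5.96, 5.69, 6.95 and 6.41 CPM in heifers 1 to 4. RLN3, a relaxin peptide, was at 0.280, 0.307, 0.273 and 0.389 CPM in bulls 1 to 4 and 6.12, 3.10, 5.43 and 3.90 CPM in heifers 1 to 4, and LIPG, endothelial lipase, at 0.120, 0.231, 0.298 and 0.389 CPM in bulls 1 to 4 and 2.10, 4.57, 2.81 and 4.43 CPM in heifers 1 to 4. KCNG1, TMEFF1, MORN3, DMC1, AGR2, PTPRT and COCH, picked by the same rules, were of this kind, at 1.45 to 7.31 CPM in IVP heifers and at most 0.496 CPM in IVP bulls. The named ones were also low in AI bulls, with means of 0.0605 CPM (AGR2) to 0.537 CPM (RLN3). IVP heifers were thus their highest group and could carry them past the filter on low counts. The split of 77 and 0 is therefore not independent of that filter. What gives these genes their 0 counts in 3 libraries was not tested. Without them and those at 0 in IVP bulls 1, 3 and 4, 1586 autosomal genes were called.

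Markers of another cell type moved with sex. Of 17 autosomal macrophage and Kupffer cell markers, 16 were tested, 9 were called higher in heifers, 0 higher in bulls, and 6 were called without IVP bull 2. Their summed level was 2649 to 3505 CPM in bulls and 3955 to 4779 CPM in heifers, without overlap, and none of the 16 was at 0 in any of the 8 libraries. CD68, a lysosomal protein of macrophages, had -0.68 ± 0.114 (SE; adjusted p = 0.00155, 0.00736 without bull 2) and C1QB, a complement chain made by Kupffer cells, -0.63 ± 0.123 (SE; adjusted p = 0.00435, 0.0185 without bull 2), while CD163 had -0.38 ± 0.145 (SE; adjusted p = 0.102). In bulk tissue, fewer cells of a type and less RNA per cell cannot be told apart. The part of this shift in the heifer-higher calls was not tested. Hepatocyte markers were called in 3 of 25, endothelial in 4 of 18 (all with heifers higher) and bile duct markers in 0 of 12, and without IVP bull 2 in 0, 2 and 0. The hepatocyte share was 12%, near the 10.8% of all autosomal genes. Mitochondrially encoded RNA was 5.01% to 6.33% of counts in bulls and 3.97% to 5.31% in heifers. With those genes left out of the scaling, fatty acid oxidation calls stayed at 11 with heifers higher and 1 with bulls higher. Oxidative phosphorylation calls stayed at 6 with heifers higher and 2 with bulls higher. Any part of mitochondrial RNA in these results beyond scaling was not tested.

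The AI calves share no library with the IVP calves. There 4514 autosomal genes were called (28.6%), and the difference between the sexes itself differed between IVP and AI calves in 4167 (26.4%). Of the 1712 IVP calls, 233 were called the same way in AI calves, which is 13.6% of the IVP calls and 5.16% of the AI calls, 506 were called the opposite way, and 1139 (66.5%) had a called interaction. Without IVP bull 2 and AI heifer 4, 2740 genes were called in AI calves and 2433 in the interaction. For single genes and lists, AI and interaction results come from the fit with both of these libraries and are not given without them. AI heifers had 9.69% to 10.3% mitochondrially encoded counts, above all other groups. With those genes left out of the scaling, 4494 genes were called in AI calves and 4155 in the interaction. Any part of the mitochondrial share in these calls beyond scaling was not tested.

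Among the 131 metabolic calls, 44 were called the same way in AI calves, 25 the opposite way, and 65 had a called interaction. In cholesterol synthesis 18 of 26 were called with bulls higher in AI calves, with a median of 0.76 beside 0.71 in IVP calves, and 3 of 26 had a called interaction. The AI log2 differences were 0.71 (adjusted p = 0.0338) for FDFT1, 2.10 (adjusted p = 0.00709) for HMGCS1 and 2.15 (adjusted p = 0.00988) for FASN. CUX2 had 3.99 (adjusted p = 7.22e-05) in AI calves, IGF1 2.07 (adjusted p = 0.00115), CYP2C281 2.35 (adjusted p = 0.00131) and ACSS2 1.99 (adjusted p = 0.00984). The interaction was not called for any of these 7 genes, and a p that misses the threshold does not show equal differences.

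Other metabolic genes differed between the origins. IGFBP2 had an AI log2 difference of 0.12 (adjusted p = 0.589) and an interaction of -0.97 (adjusted p = 0.00310). PKLR had 0.19 (adjusted p = 0.202) and 0.54 (adjusted p = 0.0152). ASS1 was higher in heifers among IVP calves and in bulls among AI calves (0.38, adjusted p = 0.0373), with an interaction of -0.96 (adjusted p = 0.00118), and PPOX went the other way round (-0.41, adjusted p = 0.000443), with an interaction of 0.79 (adjusted p = 4.44e-05). The macrophage markers also turned: 8 of 16 were called with bulls higher in AI calves, the median was 0.58 beside -0.55 in IVP calves, and 15 of 16 had a called interaction.

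**Figure D4:**
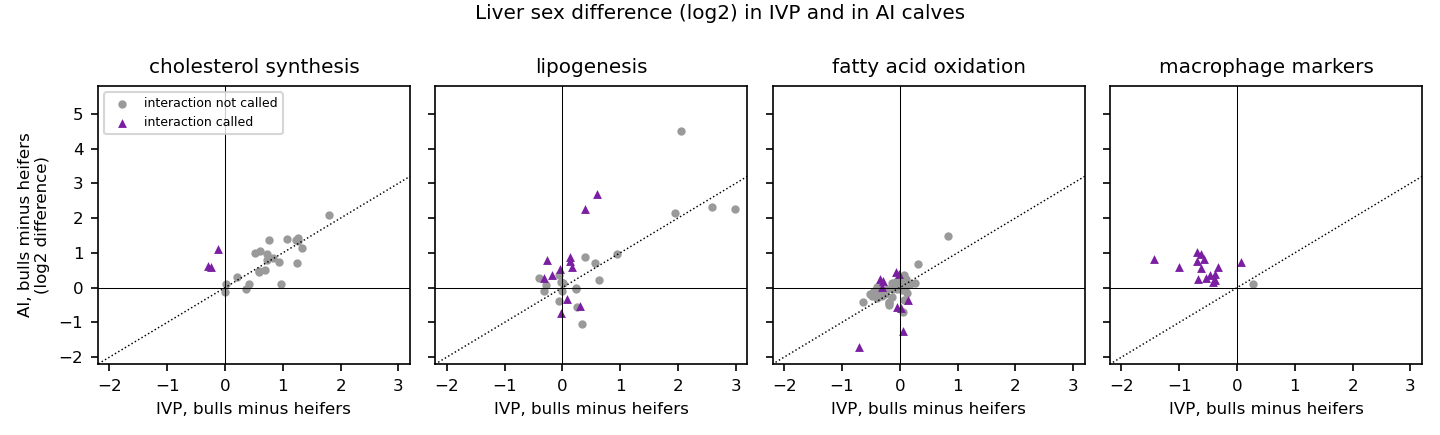
Log2 difference between bulls and heifers in liver of IVP calves (x axis) and of AI calves (y axis), 1 point per gene, for 4 gene lists, with the dotted line where both are equal. Purple triangles are genes whose difference was called different between origins, 3 in cholesterol synthesis and 15 in the macrophage markers.

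In muscle of the same IVP calves, 1771 of 14450 autosomal genes were called (12.3%), 986 with bulls higher (6.82%) and 785 with heifers higher (5.43%). Of the 131 metabolic genes called in liver, 112 were tested in muscle, where 21 were called in the same direction and 4 in the opposite one. ANGPTL4 was higher in heifers in both tissues (-2.87 in muscle, adjusted p = 0.0290), and so were MLYCD (-1.52, adjusted p = 0.0211) and OGDH (-1.05, adjusted p = 0.0304). FDFT1 had -0.46 (adjusted p = 0.121) and IGF1 0.06 (adjusted p = 0.916) in muscle, and neither passed.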

How the data were processed

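Poly(A) RNA of liver and muscle was sequenced as stranded TruSeq libraries, per the labels' protocols. The submitters' processing notes name FastQC 0.11.9, Trimmomatic, STAR 2.7.0b and, for counting, featureCounts and Subread 2.0.3. Build, annotation and strand setting: not given in the sources used here, so no coordinates are printed and overlapping or near-identical genes are uncertain. The authors deposited 1 estimated count for each gene and library, unscaled and already whole, so that rounding changed nothing. Chromosomes and symbols came from a RefSeq table (ARS-UCD2.0).

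All 16 liver libraries entered 1 fit with a mean per origin and sex, in edgeR 4.0.16 and limma 3.58.1 in R 4.3.3: filterByExpr, TMM, robust quasi-likelihood test, Benjamini-Hochberg adjustment over all 17337 genes tested, on every chromosome, and calls at an adjusted p under 0.05. Autosomal rows were then reported. Log2 differences are bulls minus heifers with their SE. On data simulated from these libraries, 43 of 100 genes changed 1.5-fold and 85 of 100 changed 2-fold were recovered, with 2 false calls among 17052 genes. Each simulated library was drawn independently, so none lay near the mean of its mates as IVP bull 2 and AI heifer 4 do. The simulation therefore gives no error rate for the calls reported here. Replicates are calves as labelled.

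The near-mean ratio compares each library with the mean CPM of its group mates, as the mean over genes with an expected count of 20 to below 200. In all, 8 estimators were computed, 7 of them after the first value was seen and most because it did not match an earlier value for these data. The reported one is the second computed, and the range over all 8 is printed because the ratio moves with the estimator.

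Members and lists were chosen with earlier results of these data known. After results were seen, the name patterns for CYP2, CYP4 and FMO genes were narrowed, because they had also taken in FMOD and other CYP families. Named genes were the 8 smallest p and 6 largest non-overlapping folds per direction, up to 3 per list, hormones and receptors, and the 4 strongest interactions per direction, all with a mean of at least 1 CPM. HMGCS1, SQLE, FDPS, DHCR7, INSIG1, SREBF2, FASN, SCD, CPT1A, CYP7A1, the marker genes and others given by a single value fall outside that rule and were chosen after their values were seen. Alternatives were DESeq2 1.42.0, limma-voom, other filters, scalings and covariates, and libraries left out. Some genes that the rule picks are not reported here. A planned motif count in promoters was not run, since no promoter sequence was used here.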

Additional observations from a re-analysis of the deposited data

Results flagged for a closer look

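The difference between bulls and heifers itself differed between IVP and AI calves, by the interaction term in edgeR at an adjusted p under 0.05, in the 48 named genes listed here. Values are the log2 difference in IVP calves minus that in AI calves. It was more positive in IVP calves for ACOX2 (1.31), AMT (1.00), ATP5ME (0.90), BCAT2 (0.99), CCDC180 (1.5), ELOVL1 (0.82), ENO3 (0.66), ISYNA1 (0.97), NDUFB10 (0.36), PFKFB4 (0.87), PKLR (0.54), PPOX (0.79), RAB24 (0.71), RAD51B (1.01) and RHBG (1.27). It was more negative for AADAC (-1.43), ALDH1A3 (-0.49), AMACR (-0.55), ASS1 (-0.96), BMP6 (-0.77), COL14A1 (-0.88), FECH (-0.48), HSD17B11 (-0.67), IGFBP2 (-0.97), IGFBP3 (-0.84) and KLF15 (-0.46). The same held for LCAT (-0.89), LMBRD1 (-0.96), MCCC2 (-0.34), MMUT (-0.49), NDUFB2 (-0.86), NQO1 (-1.45), NR3C1 (-0.33), RNFT1 (-1.06), RPIA (-0.95), SLC51A (-1.91), SRD5A3 (-0.57) and SUCLG1 (-0.68).

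For AGR2 (-8.36), ART1 (-8.97), COCH (-8.22), DMC1 (-8.33), KCNG1 (-9.34), LIPG (-9.08), MORN3 (-9.31), PTPRT (-8.47), RLN3 (-9.35) and TMEFF1 (-8.11), 3 of the 4 AI heifers were at 0 counts, so these fitted values depend on the prior count and are no bounds.

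Among the 4 IVP heifers, 1 library stood apart from the other 3 in 6 named genes, by the gap to its neighbour over the whole range, which chance gives in about 1 in 20 groups. The rule was run on all named genes, 89 called and 15 not called, so several such genes are to be expected at that rate. IGFBP3 was highest in heifer 1 (320 CPM) and TDRD9 in heifer 1 (1.73 CPM). MLYCD (73.0 CPM) and TMEFF1 (6.23 CPM) were highest in heifer 2, and SIRT5 (44.8 CPM) was lowest there. TEF was highest in heifer 4 (74.5 CPM).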

How the results depend on the processing

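For the 1712 autosomal genes called between IVP bulls and heifers, the alternatives that kept all libraries gave 1399 (no filter on low counts) to 2367 (DESeq2's Wald test), all within 1.5 times, and 0 named genes reversed. The split between bulls and heifers higher turned to 845 and 907 with DESeq2 size factors, 1130 and 1237 with DESeq2's Wald test, 862 and 945 with at least 1 CPM in at least 4 libraries, and 823 and 892 without IVP heifer 1, and was even, at 888 each, with limma-voom. Leaving out 1 library gave 784 to 1715, with 784 without IVP bull 2, 1064 without IVP bull 1, 984 without IVP heifer 2 and 989 without IVP heifer 3. Without IVP bull 2 and AI heifer 4 there were 422 calls, and 337 when genes at 0 in the group mates of either were dropped too, an alternative chosen after seeing the data. The same 2 alternatives gave 2740 and 2727 calls in AI calves and 2433 and 2326 in the interaction, where leaving out 1 library gave 3262 to 4467 and 3261 to 4379. With fewer libraries the fit has fewer degrees of freedom, and what else moves these counts was not tested. With the replicate number as a block, 1735 genes were called, 1523 of them among the 1712. The numbers follow falling age at biopsy, at 143, 137, 136 and 117 days in IVP bulls 1 to 4 and 143, 130, 120 and 118 in IVP heifers. The block is thus not free of age. Correlations of same-numbered bulls and heifers were 0.187, 0.00409, -0.0628 and 0.141, and only number 1 correlated best with its own number. What the numbers share beyond age was not tested. Of 89 named genes called, 61 were called without IVP bull 2 and 50 without both libraries. Genes called without IVP bull 2 but not without both included TM7SF2, ELOVL7, KLF15, PFKFB4, OGDH, RHBG, SLC51B, LCAT, ASS1 and NQO1. Their adjusted p without both was 0.050007 to 0.0718 in edgeR's quasi-likelihood test.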

Other observations

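Ribosomal protein genes were called with bulls higher in 10 of 73 and with heifers higher in 0, and their median log2 difference was 0.16, beside -0.01 over all autosomal genes. RPS28 (0.55) and RPL38 (0.51), both parts of the cytoplasmic ribosome, were among them, and 3 of the 10 held without IVP bull 2. Ribosomal genes have many near-identical copies, so their counts are uncertain. Of 20 T and NK cell markers, GZMB, a granzyme, was the 1 called, at 1.36, 1.33, 1.51 and 1.36 CPM in bulls 1 to 4 and 0, 0.360, 0.418 and 0.424 CPM in heifers 1 to 4, and was not called without IVP bull 2 (adjusted p = 0.0647). Of the 18 endothelial markers, TEK (-0.42) and PECAM1 (-0.37) were called higher in heifers with and without IVP bull 2. Immediate early genes, which respond to handling of tissue, were called in 0 of 17, and neutrophil and red cell markers in 0 of 6 and 0 of 5.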
